A study of Rattus norvegicus with 90 samples.

Results

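Rat hepatocytes and rat renal tubular epithelial cells were given the same 0.125 mM of thioacetamide-S-oxide for 9 h, and the 2 responses were subtracted from each other, transcript by transcript. The comparison used 20 of the 90 libraries of the series, 5 in each of 4 groups, and 19366 transcripts passed the filter on low counts. Of these, 3722 (19.2%) responded differently in the 2 cell types. In hepatocytes 1983 responses were higher than in renal cells (10.2%) and 1739 were lower (8.98%). The largest block of higher responses was made of transcripts that rose in hepatocytes and were not called in renal cells, and the largest block of lower responses of transcripts that fell in hepatocytes and were not called in renal cells.

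Thioacetamide is a liver toxicant that becomes harmful only after cytochrome P450 and flavin-containing monooxygenases oxidise its sulphur. The first product is thioacetamide-S-oxide, which is oxidised once more to a reactive form that binds proteins and lipids. Hepatocytes are rich in these enzymes, and the proximal tubule of the kidney, which reabsorbs filtered solutes and secretes drugs, carries some of them. Giving the S-oxide itself to cultured cells places the first metabolite in the medium of both cell types, so a comparison at 1 concentration asks how the cells differ in response when the added amount is equal.

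All cells were from Sprague-Dawley rats and were bought frozen. The groups were primary hepatocytes with vehicle, primary hepatocytes with 0.125 mM thioacetamide-S-oxide (labelled as their high dose), renal tube epithelial cells with vehicle, and renal tube epithelial cells with 0.125 mM (labelled as their low dose), all for 9 h. The vehicle was each cell type's own maintenance medium. The cell types also differed in supplier, medium and plate coating, so these cannot be told apart from cell type in any value below. The number of donor animals or cell lots was not given, and p-values therefore measure the spread between cultures, which may be technical. The doses had been chosen by the study for mild toxicity in each cell type, so 0.125 mM stood at different places in the 2 dose ranges. In the study's viability assays at 0.125 mM and 9 h, mean ATP relative to vehicle was lower in hepatocytes than in renal cells. Cellular LDH was near vehicle in both.

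The 20 libraries held 15413513 to 35811769 estimated counts (median 27180748), of which 90.2 to 94.6% fell on transcripts. Between 20449 and 22911 transcripts had at least 1 count. Vehicle libraries of the same cell type had Spearman correlations across transcripts of 0.982 to 0.991, and those of different cell types had 0.685 to 0.700. No table at hand paired the Ensembl transcripts with genes, so transcripts are described by number, level and response, the labelled cell types could not be checked against marker genes, and only 4 transcripts are given by identifier.

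One feature of the renal vehicle libraries touches the results. A set of 89 transcripts was picked after values had been seen, but from libraries outside the comparison: at least 100 CPM (estimated counts scaled to the library's size) in hepatocytes given 0.025 mM for 9 h, and at most 0.1 CPM in renal vehicle cells at 24 h. These transcripts together stood at 82130 to 89770 CPM in the hepatocyte vehicle libraries. In the 5 renal vehicle libraries of 9 h they summed to 90.0, 129.9, 54.8, 304.7 and 50.5 CPM, which was 0.0584 to 0.353% of their mean sum in the hepatocyte vehicle libraries. All 5 lay above the 1.45 to 2.09 CPM of the renal libraries given 0.125 mM and the 2.94 to 4.40 CPM of those given 0.5 mM for 9 h, none of which entered the choice of the set. The renal vehicle libraries of 24 h are low by that choice. Between 74 and 88 of the 89 had at least 1 count in a renal vehicle library of 9 h, against 7 to 22 in an exposed one. A reverse set of 39 renal transcripts showed no such shift in hepatocytes, with 1.35 to 2.34 CPM in vehicle and 1.32 to 2.49 CPM in exposed libraries. Of the 89 hepatocyte transcripts, 82 (92.1%) were called as higher in hepatocytes, against 10.2% of all transcripts tested, and 80 of those had a called fall in renal cells, against 4.22% of all. How these traces entered the renal vehicle libraries was not tested. Since all 5 libraries carry them, no library can be left out to remove them, and the main counts they could reach are given below also without the transcripts that are 8-fold or more higher in untreated hepatocytes.

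**Figure D1:**
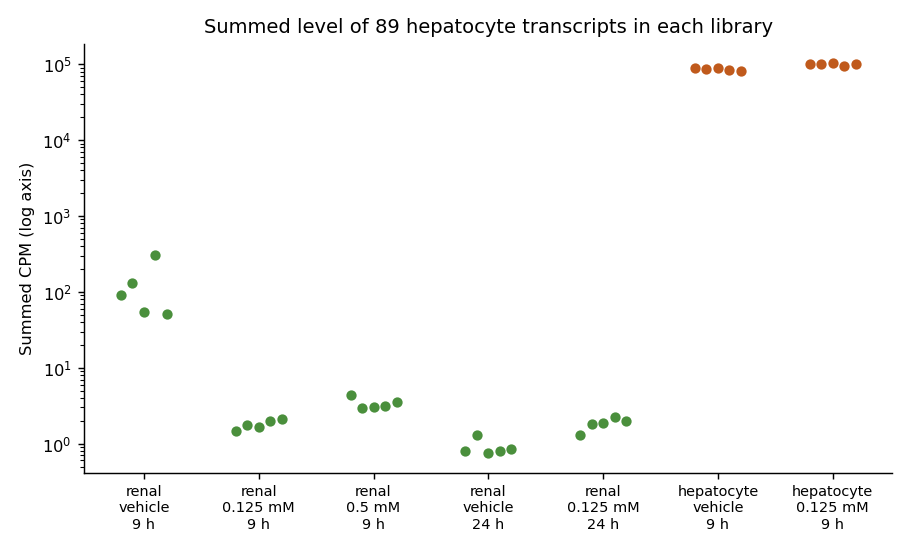
Summed CPM (log axis) of 89 transcripts abundant in hepatocytes, 1 point per library, by group. The 5 renal vehicle libraries of 9 h lie between 50.5 and 304.7 CPM, above every other renal library shown (vehicle at 24 h was used to choose the set), and the hepatocyte libraries lie at 82130 CPM or more.

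A transcript was called a DEG when its difference in response passed edgeR's quasi-likelihood test at 0.05 after Benjamini-Hochberg adjustment and reached 0.41 in size on the natural-log scale, which is 0.59 on the log2 scale. The difference is the log2 fold change of hepatocytes (exposed against vehicle) minus that of renal cells. Over all transcripts tested its median was 0.01, with a median standard error of 0.17. Among the 1983 higher DEGs the median difference was 1.18, with a median log2 fold change of 0.75 in hepatocytes and -0.31 in renal cells. Among the 1739 lower DEGs the median difference was -0.94, with -0.78 in hepatocytes and 0.16 in renal cells. Some DEGs had no count in any library of 1 group, where a fitted fold change has no firm size. With such groups held at a floor of 3 counts over their 5 libraries, the median differences were 1.15 and -0.94. The mean size of the response over all transcripts, whatever its sign, was 0.515 in hepatocytes and 0.368 in renal cells on the log2 scale. These means are of fitted values without the floor. They include 1072 transcripts with no count in at least 1 group and the renal falls in the range of the traces, so they are not firm.

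The higher DEGs reached larger sizes than the lower ones. A difference of at least 1 on the log2 scale was seen in 1183 higher and 772 lower DEGs, at least 2 in 471 and 198, and at least 3 in 240 and 87. Among transcripts whose untreated levels in the 2 cell types were within 8-fold of each other, for which a trace of the size measured above (at most 0.353% of the summed level in vehicle hepatocytes) is small beside the renal level, the counts were 700 and 533 at a size of 1. A size of at least 2 was reached by 13.1% of the higher and 7.12% of the lower DEGs of like level, against 23.8% and 11.4% of all DEGs. A size of at least 3 was reached by 58 and 37 DEGs of like level. The split of all DEGs was 53.3% higher. It was 49.4% with at least 1 CPM asked for in each group and 42.5% with limma on the deposited TPM, so neither direction held the majority under every setting. In 3403 DEGs (91.4%) the 5 hepatocyte responses all lay on one side of the 5 renal responses, where a response is an exposed library against the mean of its vehicle libraries. Over all transcripts tested this held for 8153 (42.1%). DEGs were somewhat longer than the average transcript, with a median length of 2399 bases for higher and 2323 bases for lower DEGs, against 2124 bases over all.

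**Figure D2:**
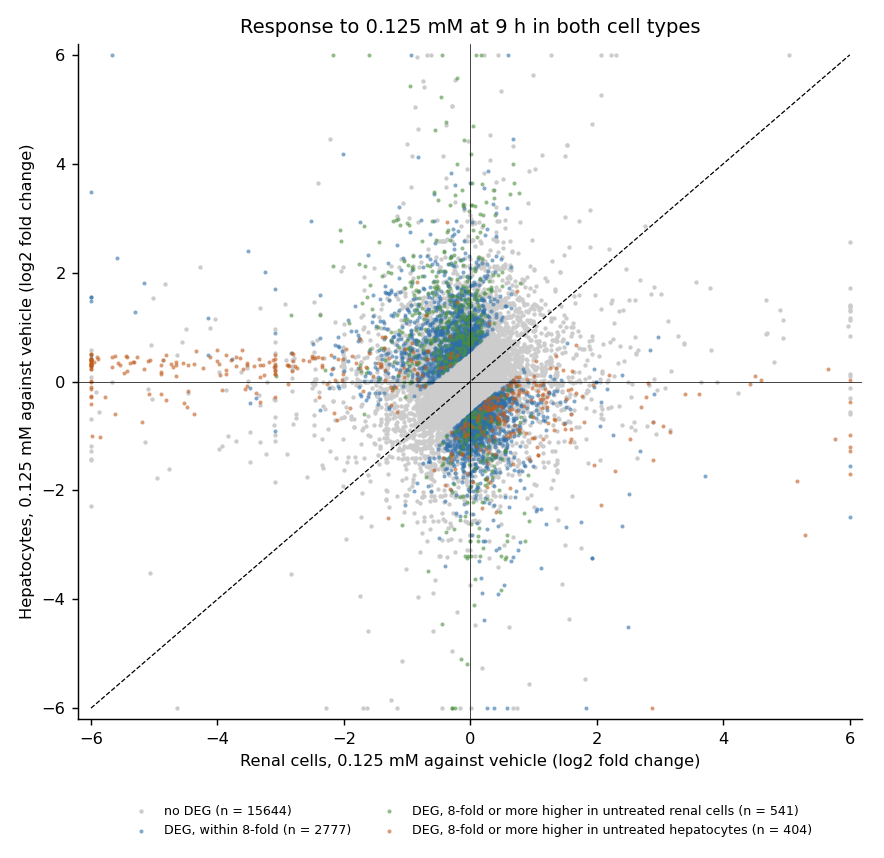
Log2 fold change at 0.125 mM and 9 h in renal cells (x axis) and hepatocytes (y axis), 1 point per transcript, with values beyond 6 in size drawn at the edge. Coloured points are the 3722 DEGs of the difference by their level in untreated cells, the dashed line marks equal responses, and many of the 201 higher DEGs that are 8-fold or more higher in untreated hepatocytes lie in a band of negative renal values at a small positive hepatocyte value.

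To see what each difference was made of, the responses of the 2 cell types were called by the same rule in the same fit. In this fit 1520 transcripts rose (7.85%) and 1847 fell (9.54%) in hepatocytes, and 368 rose (1.9%) and 818 fell (4.22%) in renal cells. Without the transcripts 8-fold or more higher in untreated hepatocytes, 268 of 18080 rose and 642 fell in renal cells. Being called in 1 cell type only was not by itself a difference. Of the transcripts called in hepatocytes only 901, and of those called in renal cells only 352, were not DEGs of the difference. Conversely, 454 higher and 397 lower DEGs were called in neither cell type. Their median differences were 0.75 and -0.72. The higher ones had medians of 0.48 in hepatocytes and -0.36 in renal cells, and the lower ones of -0.47 and 0.29.

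The first group of higher DEGs rose in hepatocytes and was not called in renal cells. It held 1027 transcripts, 51.8% of the higher DEGs. Their median log2 fold change was 1.02 in hepatocytes and -0.12 in renal cells, and 17.1% of them differed by at least 2 on the log2 scale. Of the 1027, 795 had untreated levels within 8-fold in the 2 cell types and 224 were at least 8-fold higher in untreated renal cells. The remaining 8 were at least 8-fold higher in untreated hepatocytes, the range in which the traces of the renal vehicle libraries lie.

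The second group of higher DEGs fell in renal cells and was not called in hepatocytes. It held 375 transcripts, 18.9% of the higher DEGs, with a median difference of 1.85 as fitted and 1.71 at the floor. Of these, 39.2% were at least 8-fold higher in untreated hepatocytes, with a median fitted log2 fold change of -3.96 in renal cells. For 61 of them no count was left in any exposed renal library, and with these held at the floor the median over that 39.2% was -3.0. The other 228 transcripts of the group were not of this kind. Their median difference was 1.38, and their renal median at the floor was -1.07.

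Some transcripts moved in opposite directions in the 2 cell types. As each response had to reach 0.59 in size to be called, their differences are at least 1.18 by construction. Of 308 transcripts called in both cell types, 52.6% moved in opposite directions, 41 rose in both and 34.1% fell in both. In 71.6% of the opposite movers hepatocytes rose and renal cells fell, with median log2 fold changes of 1.11 and -0.95 and a median difference of 2.22. In the other 46 hepatocytes fell and renal cells rose, with medians of -1.01 and 0.90 and a median difference of -2.23. Within the transcripts of like untreated level 93 were left, 67 and 26 by direction. Of those left out, 45 and 2 were 8-fold or more higher in untreated renal cells. Only 4 and 18 were higher in untreated hepatocytes, the range of the traces. With limma on TPM 57 were found, which is 35.2% of the count by edgeR.

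Lower DEGs were mostly falls of hepatocytes. The group that fell in hepatocytes and was not called in renal cells held 1131 transcripts, 65% of the lower DEGs, with medians of -0.92 in hepatocytes and 0.05 in renal cells. Another 8.68% of the lower DEGs rose in renal cells and were not called in hepatocytes, with medians of 1.07 and -0.22. Of the transcripts called in both cell types in the same direction 25 (17.1%) were DEGs of the difference, against 19.2% of all transcripts tested. Both fell, with hepatocytes lower, in 12 DEGs. Both rose, with hepatocytes higher, in 6 DEGs. Both fell, with renal cells lower, in 5, and both rose, with renal cells higher, in 2.

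DEGs were more frequent among transcripts that 1 untreated cell type held at 8-fold or more above the other. DEGs made up 404 of 1286 transcripts (31.4%) that were higher in untreated hepatocytes, 541 of 2312 (23.4%) that were higher in untreated renal cells, and 2777 of 15768 (17.6%) of those between. These shares are a description, since the vehicle libraries enter both the level and the response. The 541 DEGs higher in untreated renal cells were higher in 381 cases and lower in 160. Their level in vehicle hepatocytes was low (30 of the 381 had no count there in any library), and 130 of the 160 lower ones were called as falls of hepatocytes. In 271 of the 381 the hepatocytes rose from a low level, and over the 381 the median went from 0.266 CPM in vehicle to 0.684 CPM in exposed hepatocytes. In the 201 higher DEGs of hepatocyte transcripts the median renal level went from 0.370 to 0.0158 CPM, while the same transcripts stood at a median of 138.2 CPM in vehicle and 172.4 CPM in exposed hepatocytes. These renal levels lie in the range of the traces described above. Without all DEGs of transcripts higher in untreated hepatocytes 3318 DEGs remained, 1782 higher and 1536 lower.

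The gap in level between the cell types was compared before and after exposure. Of the 3722 DEGs 1722 (46.3%) had a smaller gap between the cell types after exposure than before, against 48.2% of all transcripts tested. The median size of the gap in level over the DEGs was 1.26 in vehicle and 1.45 in exposed cells on the log2 scale, against 0.95 and 1.0 over all. Without the transcripts 8-fold or more higher in untreated hepatocytes the share was 45.8% of 3318 DEGs, against 47.7% of all, and the median gap of the DEGs was 1.06 in vehicle and 1.25 in exposed cells. The shares of the DEGs and of all transcripts were thus close, and the difference between them was not tested.

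Both transcripts given here for higher responses and both for lower ones had the largest differences among 1566 DEGs with at least 5 CPM in each group and no overlap of responses, so they show the upper end of the differences and not a typical one. ENSRNOT00000026303, 3130 bases long, stood at 17.0, 17.3, 15.6, 18.5 and 18.4 CPM in the hepatocyte vehicle libraries and at 165.7, 180.2, 182.6, 212.3 and 196.7 CPM in the exposed ones. In renal cells it stood at 63.2, 69.1, 68.8, 68.9 and 65.7 CPM with vehicle and at 53.9, 42.7, 46.9, 41.8 and 40.3 CPM with 0.125 mM. Exposed hepatocytes lay above every other library and exposed renal cells below every renal vehicle library, so the order of the cell types was turned. The rise in hepatocytes was 10.8-fold, the log2 fold change in renal cells was -0.57 and just missed the rule, and the difference was 4.01 ± 0.11 (SE, n = 5 per group; edgeR's quasi-likelihood test, adjusted p = 1.96e-15).

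ENSRNOT00000022012, 2645 bases long, had 38.6, 47.4, 38.3, 52.9 and 62.3 CPM in vehicle hepatocytes and 210.7, 245.4, 224.2, 265.4 and 236 CPM in exposed ones. Renal cells had 108.9, 109.4, 113.7, 111.6 and 108 CPM with vehicle and 63.4, 62.7, 61.3, 65.6 and 65.8 CPM with 0.125 mM. None of the 4 groups overlapped another except where the highest vehicle hepatocyte library met the exposed renal range. This was an opposite mover, called as a rise of 2.31 in hepatocytes and a fall of 0.79 in renal cells on the log2 scale, and the difference was 3.10 ± 0.14 (SE, n = 5 per group; edgeR's quasi-likelihood test, adjusted p = 1.93e-12).

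ENSRNOT00000045488, 5137 bases long, went from 103.01, 90.0, 99.8, 79.4 and 76.1 CPM in vehicle hepatocytes to 19.4, 17.1, 16.3, 15.6 and 14.1 CPM in exposed ones. In renal cells it had 120.7, 114.2, 94.4, 114.3 and 109.8 CPM with vehicle and 119.1, 118.1, 128.6, 117.7 and 86.2 CPM with 0.125 mM. The renal groups overlapped, and exposed hepatocytes lay below every other library. The difference was -2.48 ± 0.15 (SE, n = 5 per group; edgeR's quasi-likelihood test, adjusted p = 1.87e-10). In 0 of 20 libraries was its estimated count within 0.001 of a whole number. Kallisto, the program that made the counts, gives such values where it divides reads among transcripts, so its level is uncertain, whereas the counts of the other 3 were whole in 20 of 20.

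ENSRNOT00000046383, 3958 bases long, had 42.3, 31.5, 36.0, 28.5 and 27.8 CPM in vehicle hepatocytes and 7.86, 6.85, 7.48, 5.81 and 7.82 CPM in exposed ones. Renal cells had 95.2, 86.8, 87.4, 93.05 and 84.1 CPM with vehicle and 120.6, 103.1, 102.02, 96.6 and 95.3 CPM with 0.125 mM. Here too the hepatocyte groups were apart, while every exposed renal library lay above every renal vehicle library, the closest pair at 95.3 and 95.2 CPM. The difference was -2.43 ± 0.15 (SE, n = 5 per group; edgeR's quasi-likelihood test, adjusted p = 1.44e-10).

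**Figure D3:**
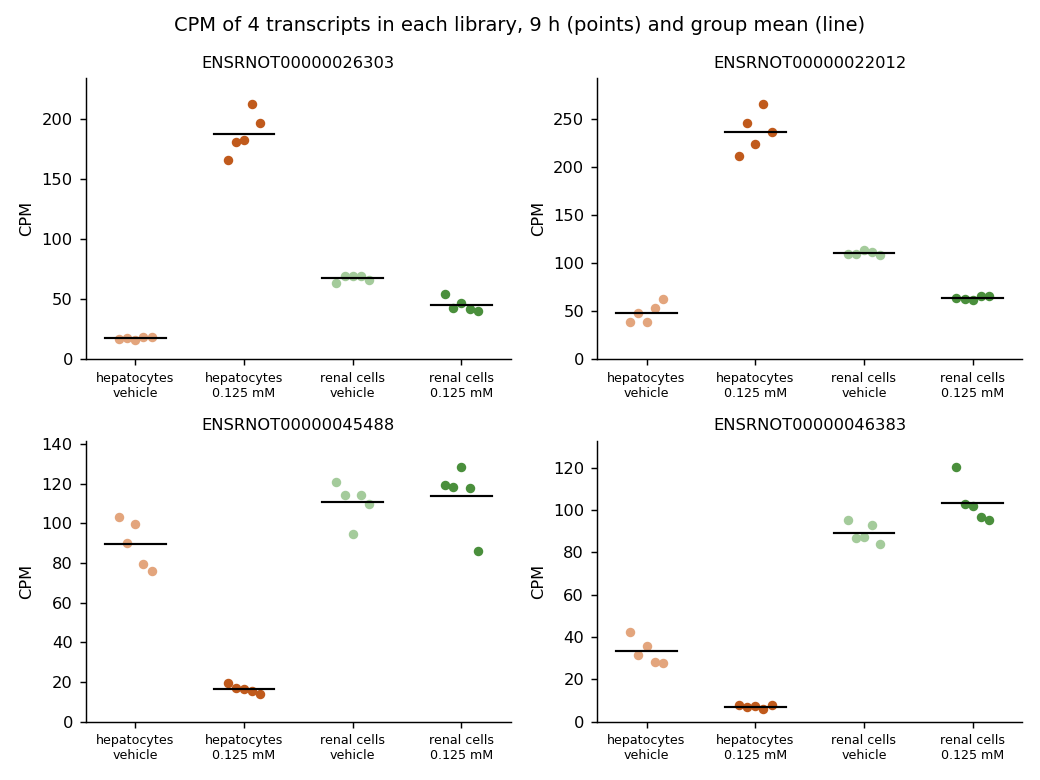
CPM of 4 transcripts in the 20 libraries, 1 point per library, with a line at the mean of each group of 5. The upper 2 transcripts rise in hepatocytes and are lower in exposed than in vehicle renal cells, and the lower 2 fall in hepatocytes.

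The same groups of DEGs were then read at the other doses and in cardiomyocytes at 9 h, in a fit of all 45 libraries of that time with 21064 transcripts. One of them, cardiomyocyte library MS-158 (0.5 mM), stood apart, with Spearman correlations of 0.886 to 0.911 with the other cardiomyocyte libraries, which had 0.972 to 0.991 among themselves, so the values it touched most are given with and without it. Doses differ, so the values stand side by side, and the hepatocyte and renal values share vehicle libraries with the comparison above. The 1027 transcripts that rose in hepatocytes only had a median log2 fold change of 0.40 in hepatocytes at 0.025 mM, where 11.1% were called as risen, against 0.845% of all transcripts. In renal cells at 0.5 mM their median was -0.03, with 10.2% risen and 13.5% fallen, against 6.33% and 9.92% of all transcripts. In cardiomyocytes, another cell type of the series with libraries of its own, it was 0.00 at 0.5 mM and 0.06 at 1.5 mM.

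The 1131 transcripts that fell in hepatocytes only had a median of -0.35 in hepatocytes at 0.025 mM, with 9.81% fallen against 0.869% of all transcripts. In renal cells at 0.5 mM their median was -0.08, with 7.07% risen and 14% fallen, against 6.33% and 9.92% of all transcripts. For the 375 that fell in renal cells only, the median at 0.5 mM in renal cells was -1.54 and 289 (77.1%, against 9.92% of all transcripts) were called as fallen, in a comparison that shares the same renal vehicle libraries and hence their traces. In hepatocytes at 0.025 mM this group had a median of 0.10, and in cardiomyocytes of -0.04 at 0.5 mM and -0.02 at 1.5 mM. Called as fallen in cardiomyocytes were 8% at 0.5 mM and 12.3% at 1.5 mM, against 1.77% and 4.56% of the 19366 transcripts. Without MS-158 these were 6.93% and 14.1%, against 1.52% and 5.3%. Risen were 3.47% at each dose, against 5.28% and 5.12%.

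The transcripts that rose in renal cells only were the group with the largest median in cardiomyocytes at 0.5 mM, 0.52, where 39 (25.8%) were called as risen against 5.26% of all transcripts. Without library MS-158 the median was 0.39 and 33 (21.9%) were risen, against 2.7% of all. At 1.5 mM the cardiomyocyte median was 0.11, with 27 (17.9%) risen against 5.05%. No library is shared between the renal and the cardiomyocyte values. The opposite movers had median log2 fold changes of 0.44 and -0.43 in hepatocytes at 0.025 mM, and of -0.98 and 0.86 in renal cells at 0.5 mM, for those that rose and those that fell in hepatocytes in turn. Their cardiomyocyte medians lay between -0.12 and 0.14.

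**Figure D4:**
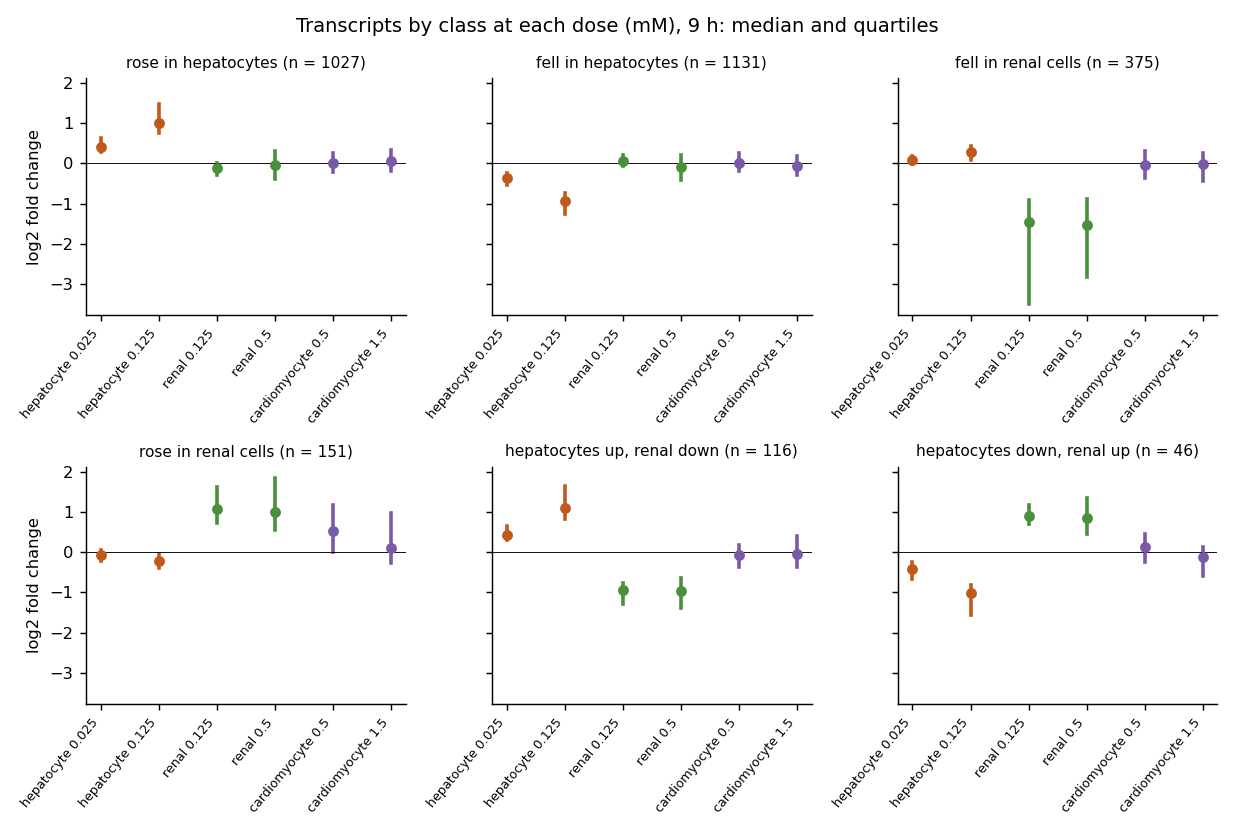
Median (point) and quartiles (bar) of the log2 fold change at 9 h, by cell type and dose in mM, for 6 groups of DEGs of the difference at 0.125 mM. Medians of the hepatocyte groups are smaller at 0.025 mM than at 0.125 mM, and cardiomyocyte medians lie near 0 except 0.52 at 0.5 mM for the transcripts that rose in renal cells (0.39 without library MS-158).

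The transcripts named above gave differing values at the other doses in the same fit. ENSRNOT00000026303 had log2 fold changes of 1.42 in hepatocytes at 0.025 mM and 0.57 in renal cells at 0.5 mM, so in renal cells its sign differed between the doses. For ENSRNOT00000022012 the values were 0.94 and -1.31, and for ENSRNOT00000045488 they were -1.04 and -0.85. ENSRNOT00000046383 had -0.60 and 0.27, neither past the threshold (edgeR's quasi-likelihood test, adjusted p = 0.0894 and 0.364), but without library MS-158 the first was -0.61 and passed (adjusted p = 2.62e-05). This transcript also fell in cardiomyocytes, by 0.74 at 0.5 mM and by 1.62 at 1.5 mM on the log2 scale (adjusted p = 0.00927 and 9.69e-08), and without MS-158 the value at 0.5 mM was -1.37 (adjusted p = 2.99e-13). A fall of this transcript was thus seen in hepatocytes and in cardiomyocytes. The cardiomyocyte values of the other 3 lay between -0.11 and 0.38, none of them called, and without MS-158 the 0.38, of ENSRNOT00000026303 at 0.5 mM, was 0.05.

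The difference at 0.125 mM was also taken at 24 h, in 20 libraries that the 9 h comparison did not use. By number, their hepatocyte vehicle libraries (MS-181 to MS-185) stand apart from the exposed ones (MS-116 to MS-120), while the renal ones run from MS-136 to MS-145. The labels and the study do not say whether they were prepared apart. Such a difference cannot be told apart from exposure in the hepatocyte values of 24 h. One of the 20, a hepatocyte vehicle library (MS-183), had 2993135 estimated counts with 8.33% on transcripts, against 84.1 to 93.5% in the others of its group. The count of DEGs depended on MS-183. With it 1406 of 19437 transcripts were DEGs (7.23%), 798 higher and 608 lower. Without it 3431 of 19750 were DEGs (17.4%), 1866 higher (9.45%) and 1565 lower (7.92%), and the values that follow leave it out unless stated. Of the 9 h DEGs 585 were DEGs in the same direction at 24 h, 15.7% of the 9 h list and 17.1% of the 24 h list, and 411 were DEGs in the opposite direction, which is 41.3% of those shared. With all libraries 247 were shared in the same direction, and 40.2% of those shared were in opposite directions. Without the transcripts 8-fold or more higher in untreated hepatocytes, and without MS-183, 519 were shared in the same direction and 41.6% of those shared were in opposite directions. Of the 3690 DEGs of 9 h that were tested at 24 h, 51.7% had the same sign there.

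Across the 19061 transcripts tested at both times the differences had a Pearson correlation of 0.08, given as a description over transcripts, which are not independent. Hepatocyte groups with opposite responses at 9 h both had medians near 0 at 24 h. The 1027 transcripts that rose in hepatocytes only had a hepatocyte median of 0.12 at 24 h, with 21.1% called as risen and 10.6% as fallen, against 12.3% and 9.47% of all transcripts. With MS-183 the median was 0.04, with 11.7% risen and 8.31% fallen, against 8.26% and 7.9% of all. The 1131 that fell in hepatocytes only had a hepatocyte median of 0.04, with 16% risen and 15% fallen, and with MS-183 a median of -0.07, with 9.98% risen and 10.5% fallen. In renal cells 28 transcripts of all those tested were called at 24 h, 23 risen (0.116%) and 5 fallen (0.0253%), against 4305 in hepatocytes. This renal count was 0 by edgeR with all libraries (507 at an unadjusted p under 0.05), 31 by DESeq2, 0 by limma, 67 with 12 groups in one fit and 44 without libraries MS-183, MS-145 and MS-137. Of the 375 that fell in renal cells only at 9 h, 2 were called as fallen at 24 h and 43.5% of those tested rose in hepatocytes. With MS-183 these values were 0 and 32.7%. Of the 375, 39.2% were 8-fold or more higher in untreated hepatocytes, in the range of the traces. The 24 h calls were not taken without them.

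Of the 4 named transcripts both with higher responses were DEGs at 24 h as well. The difference was 2.49 ± 0.40 for ENSRNOT00000026303 (SE; edgeR's quasi-likelihood test, adjusted p = 0.000152) and 1.04 ± 0.11 for ENSRNOT00000022012 (adjusted p = 2.66e-06). With library MS-183 the first was 1.72 ± 0.71 and missed the threshold (adjusted p = 0.16), and the second was 1.18 ± 0.26 (adjusted p = 0.00692). In that fit ENSRNOT00000026303 spread from 52.7 to 127.4 CPM in exposed renal libraries of 24 h. Their median of 53.54 was close to the 53.47 with vehicle, while their mean was 76.2 against 59.7. For ENSRNOT00000045488 the 24 h difference was 0.03 ± 0.13 and for ENSRNOT00000046383 it was -0.48 ± 0.44, neither past the threshold (adjusted p = 0.923 and 0.49). Exposed renal libraries of 24 h spread from 126.6 to 455.4 CPM of ENSRNOT00000046383 in the fit with MS-183. Their mean of 213.5 lay well above their median of 134.4, against a mean of 175.8 and a median of 154.9 with vehicle.

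**Figure D5:**
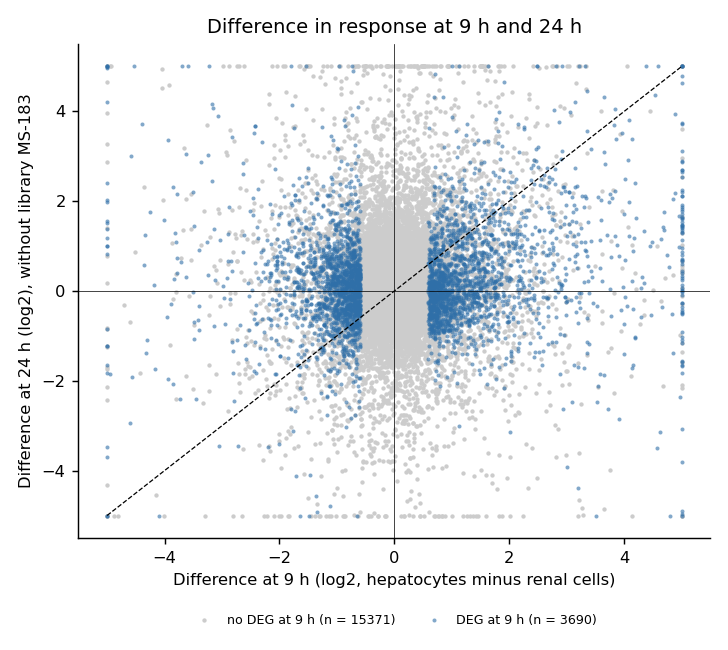
Difference in response (log2, hepatocytes minus renal cells) at 9 h (x axis) and at 24 h without library MS-183 (y axis), 1 point per transcript, values beyond 5 in size drawn at the edge. The 3690 DEGs of 9 h, in blue, lie on both sides of 0 at 24 h, and 51.7% of them keep their sign.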

How the data were processed

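RNA from 90 rat cell cultures was sequenced from poly-A libraries, paired-end and stranded, and 20 libraries of 9 h enter the main comparison. The authors quantified reads with kallisto 0.42.4 on the Rnor_6.0 transcriptome (per the labels and the study's methods) and deposited 1 table per library with estimated counts and TPM of 65166 targets, 40071 of them transcripts and 25095 genomic intervals. Kallisto divides a read that fits several transcripts among them, so estimated counts need not be whole and related transcripts trade counts. The Sleuth fits of the study were not used here.

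Estimated counts of transcripts were rounded and fitted by edgeR 4.0.16 under R 4.3.3 (filterByExpr, TMM, glmQLFit, glmQLFTest), with 1 mean per group and the contrast of both responses, adjusted by Benjamini-Hochberg over all transcripts tested. Groups came from the sample labels. The standard error was the size of the estimate over the square root of F. CPM used TMM-scaled totals, and responses per library used a prior of 0.5 CPM. The floor for a group without counts was 3 counts over its 5 libraries and covers counting error only. On simulated counts with 200 changed transcripts (18937 tested), 20 of 64 with a 1.5-fold, 50 of 68 with a 2-fold and 66 of 68 with a 4-fold change were recovered, 0 with the wrong sign, and 1 unchanged transcript was called. The 1.5-fold changes lay just under the rule's own 1.507-fold, which by itself limits their recovery. Counts were drawn at the trended dispersion, with no spread particular to a transcript, so these values do not measure the error rate in the data.

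Named transcripts were the 2 largest differences in each direction among DEGs with at least 5 CPM in each group and no overlap of responses. The comparison, the rule and the lists were chosen with earlier results of these data known. Gene lists and cell type markers had been planned, but 0 of the transcripts matched the gene table at hand (assembly GRCr8), so none was scored and no sequence is shown. Alternatives were DESeq2 1.42.0, upper-quartile scaling, TMM within each cell type, other filters, limma 3.58.1 on log2(CPM + 0.5) and on log2(TPM + 1), 12 groups in one fit, other fold thresholds, transcripts with whole counts (within 0.001 in each library), intervals added to the fit, and each library left out. Chosen after seeing the data were the 89 and 39 transcripts that trace 1 cell type in the other, the refit within 8-fold, the joint removal of 3 libraries of 24 h, the fit of 45 libraries without MS-158, counts without transcripts higher in untreated hepatocytes, the floor and the alternatives for opposite movers.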

Additional observations from a re-analysis of the deposited data

Results flagged for a closer look

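Responses differed between the 2 cell types in 3722 transcripts. The 4 named ones, chosen for the largest differences, had values of 4.01, 3.10, -2.48 and -2.43 on the log2 scale for ENSRNOT00000026303, ENSRNOT00000022012, ENSRNOT00000045488 and ENSRNOT00000046383. Of 36 sets of 5 libraries looked at for a library far from the others of its group (depth, detection, named transcripts and traces), 3 had one, where chance gives about 1.8. Hepatocyte vehicle library MS-95 had 15413513 estimated counts, and the 4 others of its group had 28975366 to 34074008. Renal library MS-130, given 0.125 mM, had 20449 transcripts with a count, against 22056 to 22614 in the others of its group, and 86.2 CPM of ENSRNOT00000045488, against 117.7 to 128.6 CPM.

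The 25095 genomic intervals of the deposited tables are no part of the comparison. Fitted together with the transcripts, 10045 passed the filter and 1738 (17.3%, against 19.2% of transcripts in the fit without them) were called for the difference, 1038 higher and 700 lower in hepatocytes. The sources used here do not say what the intervals are.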

How the results depend on the processing

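At 9 h the count of 3722 DEGs stayed between 3552 and 3887 with any 1 library left out. It was 1710 among the 7453 transcripts tested whose counts were within 0.001 of a whole number in all 20 libraries, 1955 at a difference of at least 1 on the log2 scale and 7448 with no fold threshold, which change the rule or the transcripts tested. It was 2755 of 20996 with 12 groups in one fit, 3044 with limma on TPM and 4015 with DESeq2. With at least 1 CPM in each group it was 2507 of 12753. Higher and lower DEGs were 1476 and 1279, 1294 and 1750, 2105 and 1910, and 1238 and 1269 in turn. As a percent of the main count, the opposite movers of 9 h were 46.9 with at least 1 CPM in each group, 62.3 with limma on CPM, 35.2 with limma on TPM, 58.6 with 12 groups in one fit, 55.6 among transcripts with whole counts and 59.9 in the refit within 8-fold. At 24 h the count (1406) was 3040 with DESeq2, 876 with limma, 4769 with 12 groups in one fit, 4045 without libraries MS-183, MS-145 and MS-137, and 1012 to 3431 with any 1 library left out, highest without MS-183. Limma moved the median difference at 24 h to 0.31 and its share of higher calls from 56.8 to 74.4%. DEGs shared by both times in the same direction (247) were 490 with DESeq2, 549 with 12 groups, 689 without the 3 libraries, and 190 to 585 with any 1 library left out. Those shared in opposite directions were, as a percent of their main count, 204, 229 and 288 in turn, 66.3 with no filter beyond 1 count, 53 with limma, and 69.9 to 248 with any 1 library left out. The cause of these shifts was not tested. The 9 h differences of the 4 named transcripts kept their direction and call under every alternative run, though ENSRNOT00000045488 has no value among transcripts with whole counts. Differences between 3.97 and 4.08, 3.04 and 3.20, -2.57 and -2.42, and -2.48 and -2.32 were seen with 1 library left out. No paired analysis was possible because library numbers are not shared between groups. Depth limits transcripts near 0 in a group.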
